A study of Mus musculus with 6 samples.

Results

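The genes described here are those of the endoplasmic reticulum (ER) stress response, *Hspa5*, *Hsp90b1*, *Xbp1*, *Ern1*, *Atf4*, *Atf6*, *Ddit3*, *Eif2ak3*, *Dnajb9*, and *Trib3*. They were listed by name, with earlier results of these data known. All 10 had at least 1 probe on the array, and all 12 of their probes, named through their RefSeq accessions, passed the filter on dim probes. They are 10 of 19007 named genes tested. RNA came from interscapular brown adipose tissue (iBAT) of 16-week-old male mice on the C57BL/6 background, 3 labeled control and 3 labeled *ob/ob*, and each sample was hybridized to 1 single-color (Cy3) Agilent array. *ob/ob* mice lack functional leptin and are obese. The labels name neither the control genotype beyond "control" nor any treatment, and do not say whether mice were pooled or housed together, so the spread between arrays may hold technical as well as biological variation.

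The ER folds secreted and membrane proteins, and unfolded protein in its lumen sets off the unfolded protein response. IRE1 (encoded by *Ern1*), PERK (*Eif2ak3*), and ATF6 are the sensors in the ER membrane. IRE1 splices *Xbp1* mRNA, PERK phosphorylates the translation factor eIF2α and so favors translation of ATF4, and ATF6 is cut in the Golgi to release a transcription factor. Their targets are chaperones such as BiP (*Hspa5*) and GRP94 (*Hsp90b1*), and, under lasting stress, CHOP (*Ddit3*) and *Trib3*. In brown fat, the response is also known to be engaged when thermogenesis is activated. Much of it is regulated by splicing, phosphorylation, and cleavage, which these arrays do not measure.

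ATF6 and XBP1 are known to act through the ER stress response element (ERSE), written here as CCAAT and CCACG with 9 free bases between them. Promoter sequences from RefSeq (GRCm38.p6) were found for 9 of the 10 genes, and the 250 bases before each start were searched on both strands. *Hspa5* and *Hsp90b1* held the element, the first once and the second at 2 places, whereas the promoters of the other 7 genes with a sequence held no match in this window. Of all 32851 promoters in the table, 37 held it (0.113%). The windows of both genes are printed because they carry this element. Both genes had the same 3 brightest arrays, as given below, but so did *Xbp1*, *Atf4*, and *Eif2ak3*, whose windows held no match. Capitals mark the ERSE letters, and *Hsp90b1* reads it forward at 212 to 194 bases before the start and in reverse at 107 to 89 bases before the start. The *Hspa5* element lies 65 to 47 bases before the start. The *Hspa5* window is chr2:34771840-34772089 (plus strand) and the *Hsp90b1* window chr10:86705445-86705694 (minus strand), each written 5′ to 3′.
Hspa5: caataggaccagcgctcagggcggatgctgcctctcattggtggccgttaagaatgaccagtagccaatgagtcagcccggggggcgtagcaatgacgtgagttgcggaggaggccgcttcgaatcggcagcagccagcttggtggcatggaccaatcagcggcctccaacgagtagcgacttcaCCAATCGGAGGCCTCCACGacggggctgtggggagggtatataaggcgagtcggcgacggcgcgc
Hsp90b1: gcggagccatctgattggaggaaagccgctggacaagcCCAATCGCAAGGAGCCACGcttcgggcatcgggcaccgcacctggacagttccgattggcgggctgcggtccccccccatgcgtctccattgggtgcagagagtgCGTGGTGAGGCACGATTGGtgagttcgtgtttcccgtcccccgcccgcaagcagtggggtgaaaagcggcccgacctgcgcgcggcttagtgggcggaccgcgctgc
Shorter elements of the same response were also searched in these windows, namely ERSE-II (ATTGG and CCACG with 1 free base between them), the core of the unfolded protein response element (TGACGTGG), and the C/EBP-ATF element (TGATGNAA). None of the 9 promoters held them, and 0.0304%, 0.563%, and 3.45% of all promoters did. A match is a string of letters and not a measured binding site.

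Signals are quantile normalized between arrays and given in log2 units, and a difference is *ob/ob* minus control. Where a gene had 2 probes, the brighter stands for it. In 61.5% of all genes tested, the 3 brightest arrays were either control 1, control 2, and *ob/ob* 3 or the reverse set of control 3, *ob/ob* 1, and *ob/ob* 2, so that control 3 and *ob/ob* 3 lay with the other group. Whether these 2 arrays are what their labels say could not be settled from the files, and every difference between groups given here rests on the labels as they stand. Arrays were kept in the groups of their labels, and values are also given without control 3 and *ob/ob* 3. These arrays were left out because of their values, so the smaller comparison is a description and its p values are not independent evidence. *Lep* was higher on each *ob/ob* array than on each control array, but its transcript remains in *ob/ob* mice, so it does not check the labels. Of 11 brown adipocyte markers, *Elovl3* and *Lhx8* were well detected on only 3 arrays and the others on all 6. Among the latter, *Ucp1* and *Cidea* lay at 8.93 to 13.05 and 9.79 to 15.33 log2 units. The median difference of the 11 was −2.06. For 3 of them (*Elovl3*, *Ppargc1a*, and *Zic1*) every *ob/ob* array lay below every control array, as for 4.22% of all genes. The 3 brightest arrays of *Elovl3* were the controls, and its *ob/ob* signals were low, at 3.29 to 3.92. It may thus have passed the filter through the controls alone, so its separation is not independent of the filter.

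Of the 10 genes, 4 were higher and 6 lower in *ob/ob* iBAT by the sign of the difference, against 42.8% and 57.2% of all genes. The median difference was −0.10 log2 units, and −0.086 over all genes. At an adjusted p under 0.05 (limma, Benjamini-Hochberg over all probes tested), 0 of the 10 genes and 0% of all genes in each direction were called. The only gene with an unadjusted limma p under 0.05 was *Atf6*, in the higher direction, in which 2.04% of all genes passed that threshold, and 1.69% passed it in the lower direction. *Atf6* was also the only gene whose groups did not overlap, against 8% of all genes (3.78% higher and 4.22% lower). Within a group, by contrast, several genes differed many fold between arrays. The median within-group SD was 1.27 log2 units over the 10 genes and 0.69 over all genes.

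**Figure D1:**
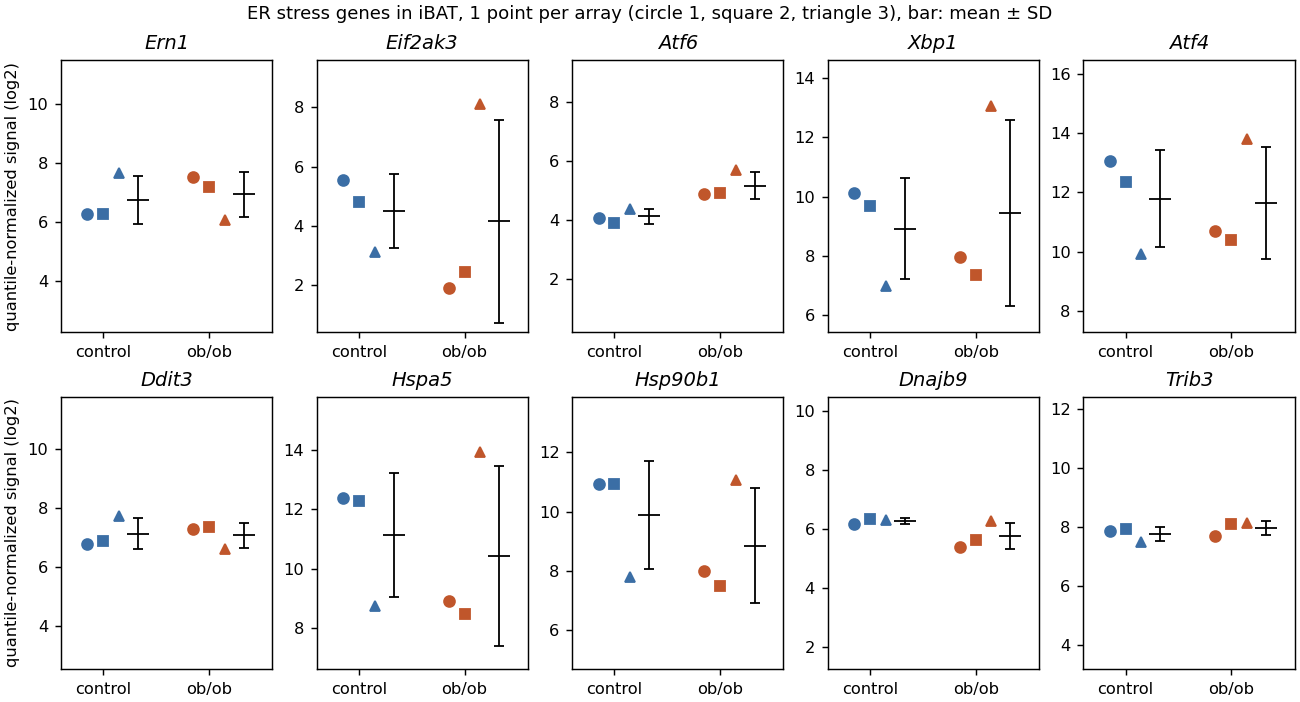
Quantile-normalized signal (log2) of the 10 ER stress genes in control (blue) and *ob/ob* (orange) iBAT, 1 point per array, with mean ± SD (n = 3) as a black bar; each panel spans the same number of log2 units. Array 3 (triangle) of each group stands apart from arrays 1 and 2 for *Hspa5*, *Hsp90b1*, *Xbp1*, *Atf4*, and *Eif2ak3*, and only *Atf6* has groups that do not overlap.

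Among the sensors, *Atf6* read 4.07, 3.92, and 4.39 log2 units across the control arrays, in the order of their numbers, against 4.89, 4.91, and 5.69 across the *ob/ob* arrays. Every *ob/ob* array lay above every control array. The means were 4.12 ± 0.24 and 5.17 ± 0.46 (SD, n = 3 each), a difference of 1.04 (standard error 0.37), or 2.06-fold. A two-sided exact permutation test gave p = 0.1, the smallest possible for groups of 3. Limma gave an unadjusted p of 0.029 and an adjusted p of 1.0. The probe is dim, and on control 2 it was not well above background. With each array scaled to its 75th percentile, the difference was 0.69 (unadjusted limma p 0.254), where the median of all genes moved to −0.30. The unadjusted limma p was also above 0.05 without control 1 (0.0856) and without control 2 (0.109).

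*Ern1*, which encodes the kinase and endoribonuclease IRE1, had signals of 6.27, 6.29, and 7.67 in the controls and of 7.53, 7.20, and 6.08 in the *ob/ob* samples. Control 3, *ob/ob* 1, and *ob/ob* 2 were high, the other arrays low, and the groups overlapped. The difference was 0.19 (standard error 0.58, unadjusted limma p 0.749), and −0.12 with scaling to the 75th percentile. Without control 3 and *ob/ob* 3 it was 1.09.

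*Eif2ak3*, encoding PERK, had signals of 5.56, 4.80, and 3.12 in the controls and of 1.90, 2.46, and 8.11 in the *ob/ob* samples. Its probe was well above background on control 1, control 2, and *ob/ob* 3 and not on the other 3 arrays. The difference, −0.34 (standard error 1.70, unadjusted limma p 0.846), therefore rests in part on signal that was not well above background. The sensors thus showed different orders of the arrays, with *Ern1* and *Eif2ak3* bright on opposite sets.

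Of the transcription factors, *Xbp1*, the target of IRE1 splicing, had signals of 10.11, 9.69, and 6.97 in the controls and of 7.95, 7.34, and 13.06 in the *ob/ob* samples. *ob/ob* 3 was the brightest array and control 3 the dimmest, and the *ob/ob* arrays spanned 52.8-fold. The difference was 0.53 (standard error 1.67, unadjusted limma p 0.761) and turned to −2.26 without control 3 and *ob/ob* 3. Nothing in the files marks the probe as specific for spliced *Xbp1* mRNA, so splicing was not measured here.

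*Atf4*, translated when eIF2α is phosphorylated, had signals of 13.07, 12.37, and 9.94 in the controls and of 10.70, 10.41, and 13.81 in the *ob/ob* samples. Control 1, control 2, and *ob/ob* 3 were again the bright arrays, with a difference of −0.15 (standard error 1.18, unadjusted limma p 0.902). A dimmer *Atf4* probe had the same 3 bright arrays over a narrower range, 4.80 to 6.36, with a difference of 0.046 (standard error 0.53).

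*Ddit3*, which encodes the proapoptotic factor CHOP, had signals of 6.77, 6.90, and 7.72 in the controls and of 7.29, 7.36, and 6.60 in the *ob/ob* samples. As for *Ern1*, control 3, *ob/ob* 1, and *ob/ob* 2 were brighter than the rest, but the 6 arrays lay within a narrow range. The difference was −0.049 (standard error 0.42, unadjusted limma p 0.910), and 0.49 without control 3 and *ob/ob* 3.

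Of the chaperones, *Hspa5*, encoding the major HSP70 chaperone of the ER lumen, had signals of 12.40, 12.29, and 8.73 in the controls and of 8.89, 8.48, and 13.94 in the *ob/ob* samples. The control arrays differed by up to 12.8-fold and the *ob/ob* arrays by up to 44.0-fold. The means were 11.14 ± 2.09 and 10.44 ± 3.04 (SD, n = 3 each), a difference of −0.70 (standard error 1.72, unadjusted limma p 0.695, adjusted limma p 1.0). It was −3.66 (standard error 0.25) when control 3 and *ob/ob* 3 were left out.

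*Hsp90b1*, the HSP90 chaperone of the ER, had signals of 10.94, 10.95, and 7.79 in the controls and of 8.0, 7.49, and 11.08 in the *ob/ob* samples. It shared with *Hspa5*, whose promoter also holds the ERSE, the bright arrays control 1, control 2, and *ob/ob* 3, with a difference of −1.04 (standard error 1.26, unadjusted limma p 0.438), and −3.20 without control 3 and *ob/ob* 3.

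*Dnajb9*, an ER cochaperone of BiP and a target of XBP1, had signals of 6.16, 6.35, and 6.30 in the controls and of 5.39, 5.64, and 6.26 in the *ob/ob* samples. The controls lay within 1.14-fold, *ob/ob* 1 and *ob/ob* 2 lay below them, and *ob/ob* 3 lay among them, so the groups overlapped. The difference was −0.51 (standard error 0.35, unadjusted limma p 0.199). Its other probe disagreed, with signals of 6.24, 5.77, and 5.47 in the controls and of 5.35, 5.32, and 7.54 in the *ob/ob* samples, a difference of 0.25 (standard error 0.67), and the bright arrays of *Hspa5*.

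*Trib3*, a pseudokinase induced by ATF4 and CHOP, had signals of 7.88, 7.92, and 7.48 in the controls and of 7.70, 8.10, and 8.12 in the *ob/ob* samples. No array stood apart. The difference was 0.21 (standard error 0.33, unadjusted limma p 0.536), and −0.0015 without control 3 and *ob/ob* 3.

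**Figure D2:**
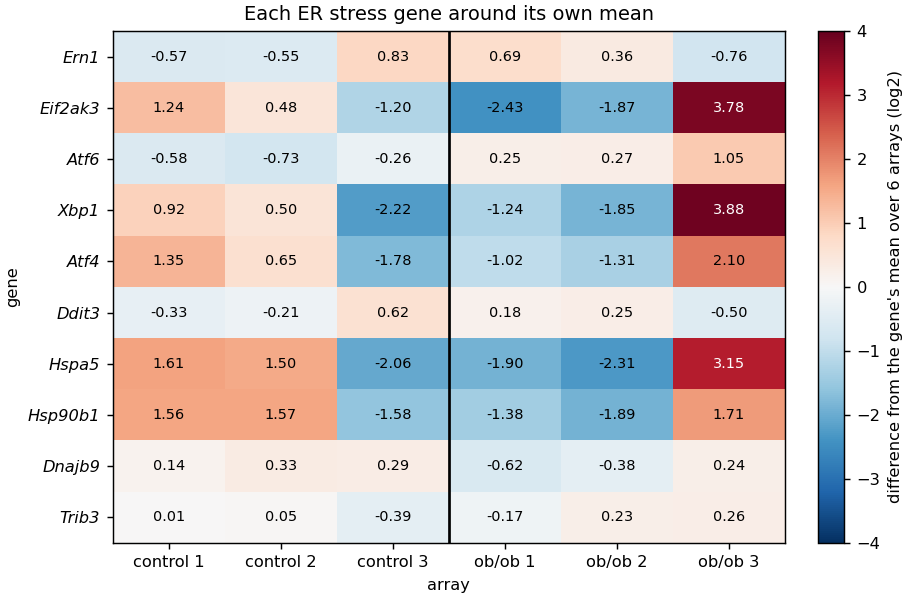
Difference of each array from the gene's own mean over the 6 arrays (log2, color and printed value), with genes in rows and arrays in columns; the black line separates control from *ob/ob*. *Hspa5*, *Hsp90b1*, *Xbp1*, *Atf4*, and *Eif2ak3* are above their mean on control 1, control 2, and *ob/ob* 3, and *Ern1* and *Ddit3* are above it on the other arrays.

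Control 1, control 2, and *ob/ob* 3 were the 3 brightest arrays for 5 of the 10 genes (*Hspa5*, *Hsp90b1*, *Xbp1*, *Atf4*, and *Eif2ak3*), against 29.8% of all genes. *Eif2ak3* was well above background on these 3 arrays only and passed the filter through them, so its place among the 5 was not independent of the filter. Its spread, given below, rests in part on signal not well above background. Control 3, *ob/ob* 1, and *ob/ob* 2 were the brightest for *Ern1* and *Ddit3*, against 31.7% of all genes. The within-group SD of *Hspa5*, *Eif2ak3*, *Xbp1*, *Hsp90b1*, and *Atf4* exceeded that of 98.9%, 98.8%, 98.6%, 93.0%, and 90.8% of all genes, respectively. For *Trib3*, *Dnajb9*, and *Atf6*, it exceeded that of 7.61%, 15.2%, and 19.6% of genes.

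Markers of other cells were read on the same arrays. Of 10 skeletal muscle markers, 9 had the same 3 bright arrays as *Hspa5*, and the median signal of the list was 9.76, 10.14, and 7.79 over the control arrays against 6.37, 6.27, and 10.95 over the *ob/ob* arrays. Of the brown adipocyte markers, 6 of 11 had these bright arrays. The list medians were 10.06, 10.43, and 8.93 over the control arrays and 7.97, 7.90, and 7.58 over the *ob/ob* arrays. These medians join genes of unlike brightness and hide the order within a gene. For *Ucp1*, *Cidea*, *Dio2*, *Cox8b*, *Cox7a1*, *Fabp3*, and *Lhx8*, *ob/ob* 3 lay above control 3. For *Elovl3*, *Ppargc1a*, *Zic1*, and *Otop1*, it lay below control 3. The macrophage markers (2 of 10), the B and plasma cell markers (0 of 9), and the white adipocyte markers (0 of 7) had these bright arrays in the counts given, against 29.8% of all genes, with list medians of 6.34 to 7.97, 5.41 to 6.36, and 5.67 to 6.60 over the 6 arrays. In bulk tissue, fewer cells of a type and less RNA per cell cannot be told apart, and the part of other cells in the values of the ER stress genes was not tested.

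Without control 3 and *ob/ob* 3, 7 of the 10 genes were lower and 3 higher by sign, against 46.4% and 53.6% of all genes, and the median difference was −1.45 log2 units, against 0.073 over all genes. Of these, *Hspa5*, *Hsp90b1*, *Eif2ak3*, *Xbp1*, and *Atf4* were lower by at least 2-fold, as were 23.2% of all genes, and *Ern1* was higher by at least 2-fold, as were 16.7%. The *Eif2ak3* value, also among the adjusted calls below, rests on *ob/ob* signals that were not well above background. At an adjusted limma p under 0.05 in this smaller comparison, 6 genes were lower and 2 higher, against 27% and 22.3% of all genes, so such a call is common among these 4 arrays. The groups did not overlap for 9 of the 10, against 74.8% of all genes. The difference for *Atf6* was 0.91 here and 1.04 over the 6 arrays. The arrays were also read in 4 scans. Here *ob/ob* 1 was set against the mean of control 1 and control 3, the controls of its own scan. By this difference, 6 of the 10 genes were lower, with a median of −0.70 against −0.055 over all genes. For *Hspa5*, *Hsp90b1*, *Xbp1*, and *Atf4*, however, *ob/ob* 1 lay below control 1 but above control 3. *Eif2ak3* and *Dnajb9* lay below both controls, but for *Eif2ak3* neither *ob/ob* 1 nor control 3 was well above background. The difference was 0.67 for *Atf6*. No other scan held both groups, and this one held 1 *ob/ob* array. A fit with scan as a block leaves 1 residual degree of freedom, so its p values say little.

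**Figure D3:**
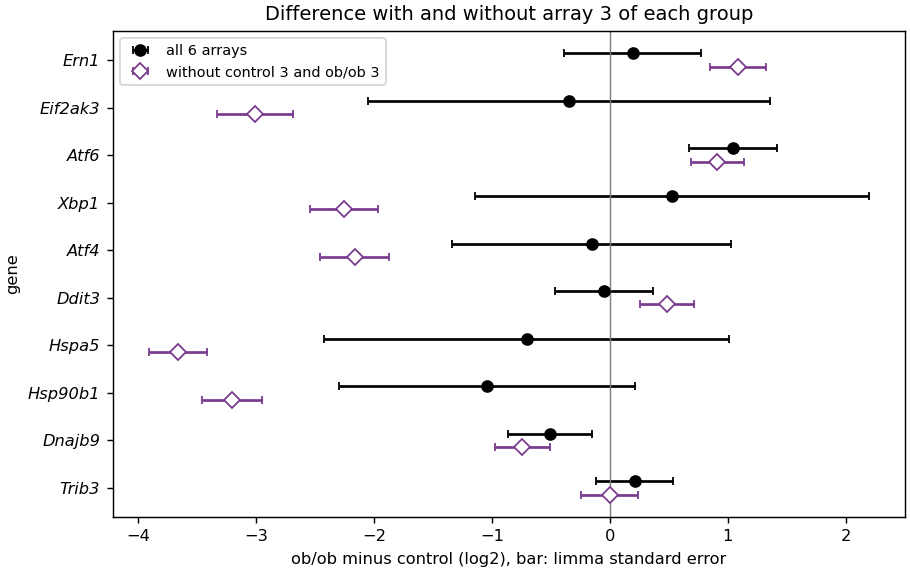
Difference between *ob/ob* and control (log2) for each ER stress gene, with limma's standard error as the bar, over all 6 arrays (black circles) and without control 3 and *ob/ob* 3 (open diamonds). The estimate for *Hspa5* moved from −0.70 to −3.66 and that for *Xbp1* from 0.53 to −2.26, whereas *Atf6* was 1.04 and 0.91.

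Other genes of the response were read from 5 lists, and of 123 genes listed, 118 were tested. An unadjusted limma p under 0.05 was reached by 1 gene in the higher and 3 in the lower direction, and by 0 genes after adjustment, against 2.04% and 1.69% of all genes at the unadjusted threshold. The groups did not overlap for 8 of the 118, of which 4 were higher and 4 lower, against 8% of all genes. Control 1, control 2, and *ob/ob* 3 were the bright arrays for 66 of the 118, against 29.8% of all genes.

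ER chaperones and folding enzymes had a median difference of −0.12 log2 units, with 14 of 23 lower and 1 past the unadjusted threshold. This was *Sdf2l1*, a cofactor of BiP and its J-domain partners, with signals of 8.23, 9.08, and 8.39 in the controls and of 7.09, 7.16, and 5.82 in the *ob/ob* samples. The groups did not overlap, with a difference of −1.87 (standard error 0.49, unadjusted limma p 0.00819, adjusted 1.0). *Sil1*, the nucleotide exchange factor of BiP, and *Ero1b*, an ER oxidase, followed with differences of −0.65 and 0.29, neither past the threshold.

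For genes of ER-associated degradation, which returns misfolded protein to the proteasome, the median was −0.33, with 17 of 23 lower and 2 past the unadjusted threshold. *Rnf5*, a ubiquitin ligase of the ER membrane, had signals of 11.07, 12.12, and 11.17 in the controls and of 8.39, 8.52, and 7.72 in the *ob/ob* samples. The groups lay well apart, with a difference of −3.24 (standard error 0.44, unadjusted limma p 2.42e-04, adjusted 0.892), and −3.14 without control 3 and *ob/ob* 3. *Ube2g2*, a ubiquitin-conjugating enzyme of this pathway, had signals of 11.68, 12.23, and 11.74 in the controls and of 10.11, 10.07, and 8.90 in the *ob/ob* samples, a difference of −2.19 (standard error 0.45, unadjusted limma p 0.00239, adjusted 1.0). Here control 3 lay with the other controls and *ob/ob* 3 with the other *ob/ob* arrays, unlike for *Hspa5*. Both genes were named for their low p between the labeled groups. That choice favors such an order, so it does not check the labels. The selenoprotein *Selenos* had a difference of 1.21 with overlapping groups and an unadjusted limma p of 0.105.

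Genes of ER translocation and export had a median of 0.017, with 9 of 20 lower. *Spcs3*, a subunit of the signal peptidase, was the one past the unadjusted threshold, with signals of 6.02, 5.62, and 6.25 in the controls and of 6.83, 6.60, and 7.20 in the *ob/ob* samples. Its groups did not overlap, and the difference was 0.91 (standard error 0.35, unadjusted limma p 0.0381, adjusted 1.0). *Sec61g*, of the translocation channel, and *Sec23b*, of the coat of export vesicles, both had differences of −0.49 within overlapping groups.

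Targets of ATF4 and CHOP had a median of −0.037, with 18 of 31 lower and 0 past the unadjusted threshold. *Phgdh*, the first enzyme of serine synthesis, had signals of 6.56, 6.22, and 6.57 in the controls and of 7.19, 7.04, and 7.25 in the *ob/ob* samples. The groups did not overlap, with a difference of 0.71 (standard error 0.30, unadjusted limma p 0.0561). *Aars*, an alanyl-tRNA synthetase, and the transcription factor *Atf3* had differences of −0.76 and −1.60 with overlapping groups. The other sensors, processing proteases, and eIF2 regulators had a median of −0.14, with 12 of 21 lower and 0 past the threshold, and *Eif2b4*, *Ppp1r15b*, and *Creb3l2* had the lowest unadjusted p values, at 0.133, 0.197, and 0.223.

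**Figure D4:**
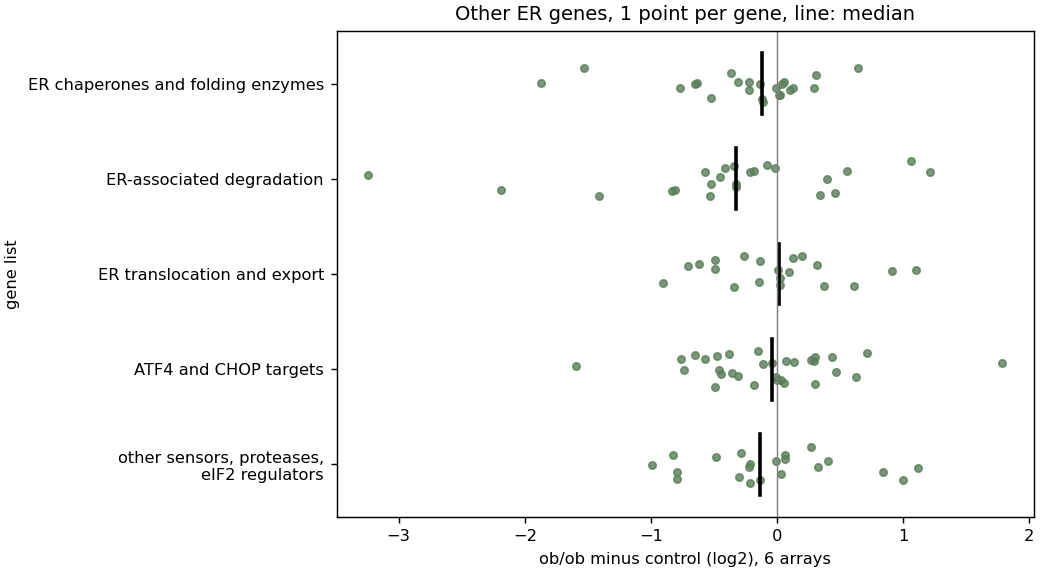
Difference between *ob/ob* and control (log2, 6 arrays) for the genes of 5 ER lists, 1 point per gene, with the list's median as a vertical line; points are spread vertically for legibility. The medians lie between −0.33 and 0.017, and the points farthest to the left are *Rnf5* at −3.24 and *Ube2g2* at −2.19.

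The ERSE was also present in the promoters of 8 of the 97 list genes with a promoter sequence. Of these 8, 6 had the same 3 bright arrays as *Hspa5* and *Hsp90b1*. These arrays were also the brightest for 66 of the 118 list genes tested, with or without the element, so no link to the element is drawn. The others of the 8 were *Derl3*, of ER-associated degradation, whose bright arrays were control 3, *ob/ob* 1, and *ob/ob* 2 (a difference of 0.34), and *Ero1b*. The *ob/ob* arrays of *Ero1b* all lay above the controls, as for 3.78% of all genes. The margin was slight, with *ob/ob* 1 at 5.561 and control 1 at 5.556. Of the 6, both examples here were chosen after their values were seen. *Calr*, a lectin chaperone, was at 8.25, 8.33, and 6.69 log2 units on the control arrays against 6.39, 6.62, and 8.36 on the *ob/ob* arrays. *Canx*, its membrane-bound relative, was at 9.21, 9.03, and 5.88 against 7.04, 6.30, and 10.12. Both had control 3 low and *ob/ob* 3 high, with differences of −0.63 and −0.22 that were within the spread of the arrays. Over all named genes with the element in this window, 23 were tested. Of the 13 that were neither list genes nor among the 10 genes described here, 3 had these bright arrays, against 29.8% of all genes.

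The gene outside the lists whose profile over the 6 arrays was most like each member was sought by the root mean square difference, each gene centered on its own mean, among 15724 genes detected on all 6 arrays. These were *Ctla2a* for *Hspa5* (0.114 log2 units), *6820431F20Rik* for *Hsp90b1* (0.0978), *Slc25a3* for *Xbp1* (0.105), *Smu1* for *Atf4* (0.105), and *Col1a1* for *Eif2ak3* (0.374). For the remaining genes, they were *Kpna2* for *Atf6* (0.0923), *Igfl3* for *Ern1* (0.10), *Cfap206* for *Ddit3* (0.0385), *Oga* for *Dnajb9* (0.0493), and *Olfr15* for *Trib3* (0.0877). Among the members, *Ern1* and *Ddit3* were nearest to each other, at 0.305, as were *Dnajb9* and *Trib3* at 0.433 and *Hsp90b1* and *Atf4* at 0.508.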

How the data were processed

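RNA of iBAT from 3 control and 3 *ob/ob* samples was hybridized to 1 Agilent array per sample. The authors deposited the scanner output, made with Agilent Feature Extraction (version 11.0.1.1), whose spot intensity is corrected for background within the array and not normalized between arrays, with 0 or 1 flags for each spot as an other value, and a table of log2 values that the authors quantile normalized with GeneSpring. Here, spots with an outlier flag (153 to 227 of 43020 per array) were left out, log2 intensities were averaged over spots, and arrays were quantile normalized. No spot was saturated. On the arrays, 83.5% to 89.9% of spots lay well above background, and the number of arrays limits the precision. Probes were named through RefSeq accessions (GRCm38.p6, 27228 of 28684 named), and the array's own build, mm9, was used for no coordinates.

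A probe was tested when at least 3 of the 6 arrays showed it well above background on at least 50% of its spots, which left 35448. Groups were compared with limma version 3.58.1 (R version 4.3.3), two-sided, with Benjamini-Hochberg adjustment over these probes. All 10 genes are described, and from each list the 3 genes with the lowest unadjusted p are named. The genes and lists were chosen with earlier results of these data known. Code was tested on simulated data. Alternatives were 75th percentile scaling, normexp, the authors' values, other detection filters, the methods' t-test, an intensity trend, array weights, the replicate number or scan as a block, the mean of a gene's probes, and leaving out arrays. Tables and figures used Python (version 3.11.15) and pandas (version 2.3.3).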

Additional observations from a re-analysis of the deposited data

How the results depend on the processing

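*Hsp90b1* (−3.20 to −0.35 log2 units), *Atf6* (0.38 to 1.18), and *Dnajb9* (−0.96 to −0.13) kept their direction under each alternative in which they were tested. For *Dnajb9*, these are values of the brighter probe or the mean of its probes. Its other probe, not used alone in any alternative, had a difference of 0.25. Leaving out 1 array at a time gave −2.46 to 0.27 for *Hspa5*, −1.28 to 1.58 for *Xbp1*, −0.10 to 0.66 for *Ern1*, −1.24 to 0.49 for *Atf4*, −0.23 to 0.25 for *Ddit3*, and −2.32 to 0.78 for *Eif2ak3*, and so changed their sign. *Hspa5* was above 0 without *ob/ob* 1 or *ob/ob* 2. The sign also turned for *Ern1* with 75th percentile scaling (−0.12) and for *Eif2ak3* with normexp (0.35). With array weights, with weights found gene by gene (chosen after seeing the data), and without control 3 and *ob/ob* 3 together, *Xbp1* was −1.74, −1.86, and −2.26, *Ddit3* 0.39, 0.40, and 0.49, and *Trib3* −0.22, −0.089, and −0.0015. With scan as a block, where 1 residual degree of freedom is left, *Xbp1* was −0.59 and *Ddit3* 0.037. The cause of these changes was not tested.

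The adjusted call counted 0 probes higher and 0 lower, and in the same 3 settings 16139, 9053, and 8090 higher and 17029, 8349, and 8169 lower. Array weights ran from 0.0178 to 1256, so the first fit rests on few arrays. The trend and robust fit called 1 lower. At an unadjusted p under 0.05, 705 of the 35448 probes tested were higher and 540 lower. These counts became 16170 and 17052, 10151 and 9436, and 9395 and 9039 in those 3 settings, 139 and 312 with 75th percentile scaling, and 35 and 113 with scan as a block. Leaving out 1 array at a time gave 0 adjusted calls and 112 (without control 2) to 2188 (without *ob/ob* 3) higher and 173 to 1296 lower at the unadjusted threshold. Of the 10 genes, 1 passed that threshold, and 10, 9, and 8 did in the 3 settings, in which most of all probes passed as well. The count was 0 with 75th percentile scaling, with scan as a block, or with detection on all 6 arrays, where *Atf6* was not tested. With 1 array left out, it was 0 (without control 1 or control 2) to 3 (without *ob/ob* 3, where 2188 probes were higher and 1296 lower). Groups did not overlap for 1 gene, for 0 with detection on all 6 arrays (8.1% of all genes), for 9 without both arrays (74.8%), and for 1 to 3 with 1 left out (8.73% to 29.6%). The median of the 10 genes, −0.10, was −1.31 with either kind of weights, −0.70 with scan as a block, −1.45 without both arrays, and −0.997 to 0.21 with 1 left out.

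Whether the replicate numbers pair the samples could not be told. Same-numbered arrays deviated from their group means in opposite directions (correlations of −0.781, −0.658, and −0.850), and 0 control arrays correlated best with their own number. However, control 3 and *ob/ob* 3 lay with the other group, which gives opposite deviations with or without pairing. A replicate block left 139 probes higher and 220 lower at an unadjusted p under 0.05, and 0 of the 10 genes.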
